A study of Mus musculus with 9 samples.

Results

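The natural killer lectin-like receptor genes are a family of surface receptor genes named Klr in the mouse. Members were all protein-coding genes whose symbol is Klr followed by a letter from a to k and a digit, together with Ncr1, Fcer1g and Tyrobp. The rule gave 29 genes, 26 of them Klr genes, among the 35288 genes listed. They were measured by RNA-seq in T15, a murine peripheral T-cell lymphoma (PTCL) line that lacks Smarcb1, a core subunit of the SWI/SNF chromatin remodelling complex. T15 was derived from a tumour in mice in which Cre driven by the Cd4 promoter removes conditional Smarcb1 alleles, so all groups share this deletion. There were 9 libraries in 3 groups of 3. The SAHA group received SAHA (vorinostat), an inhibitor of histone deacetylases, at 1 µM over 72 h. The Smarcb1-RE group carried a lentiviral plasmid for re-expression of Smarcb1, was selected with G418 and was induced with doxycycline at 0.5 µg/µl for 72 h. The study describes the RNA-seq controls as untreated T15 cells, while the labels mention both vehicle and a control plasmid and do not say which, if either, the 3 control libraries received. Smarcb1 therefore cannot be told apart from transduction, selection and doxycycline in the Smarcb1-RE comparison. The study calls the replicates biological. Whether the Smarcb1-RE libraries came from 1 clone is not given in the sources used here, and p-values measure the spread between these samples.

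These receptors let natural killer cells and some T cells read the state of other cells. Most of them are type II membrane proteins with a C-type lectin-like domain. The Klra genes encode the Ly49 receptors, which bind MHC class I, and Klrd1 (CD94) pairs with Klrc1 (NKG2A) or its relatives to bind the non-classical class I molecule Qa-1. Klrk1 (NKG2D) binds stress-induced ligands, and Klrg1 binds cadherins. The Klrb1 (NKR-P1) receptors bind Clec2 (Clr) lectins, whose genes lie among them in the natural killer gene complex. Activating receptors signal through small adaptors with short tails, among them Tyrobp (DAP12), Fcer1g (the Fc receptor gamma chain) and Hcst (DAP10). Ncr1 (NKp46) is an immunoglobulin-type receptor that is widely used to define natural killer cells.

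Klrb1f was the 1 member with at least 1 CPM (its share of a library's counts, scaled with TMM factors), and it was so in all 3 groups. It encodes NKR-P1F, an activating receptor of the NKR-P1 group. The gene (ENSMUSG00000030154) spans chr6:129045901-129057464 on the plus strand of GRCm38 in GENCODE M21, and its exons cover 2025 bp. The sequences just before its annotated start and before those of 2 other Klrb1 genes and of Clec2i, which encodes the lectin bound by NKR-P1F, are shown because these neighbours differed so widely in level. Klrb1f and Clec2i had at least 183 counts in each library, while Klrb1b and Klrb1c, which encode an inhibitory receptor and the activating receptor known as NK1.1, had at most 2. Each run holds the 250 bases before the start in GRCm38.p6 (RefSeq), read 5′ to 3′ on the gene's own strand, with capitals for CG pairs and for the letters TGTGGT, the core of the RUNX motif. They lie at chr6:129045651-129045900 (plus strand), chr6:128826316-128826565 (minus), chr6:128788642-128788891 (minus) and chr6:128887337-128887586 (plus).
Klrb1f: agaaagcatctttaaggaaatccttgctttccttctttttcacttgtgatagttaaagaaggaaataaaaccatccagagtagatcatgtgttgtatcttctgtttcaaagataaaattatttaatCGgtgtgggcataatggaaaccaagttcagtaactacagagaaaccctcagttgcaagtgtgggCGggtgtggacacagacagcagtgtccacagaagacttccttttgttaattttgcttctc
Klrb1b: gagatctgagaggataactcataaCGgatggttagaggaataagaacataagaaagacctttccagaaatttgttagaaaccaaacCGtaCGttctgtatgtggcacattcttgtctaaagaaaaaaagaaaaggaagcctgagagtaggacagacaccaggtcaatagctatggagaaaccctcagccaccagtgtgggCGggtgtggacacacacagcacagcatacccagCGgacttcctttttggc
Klrb1c: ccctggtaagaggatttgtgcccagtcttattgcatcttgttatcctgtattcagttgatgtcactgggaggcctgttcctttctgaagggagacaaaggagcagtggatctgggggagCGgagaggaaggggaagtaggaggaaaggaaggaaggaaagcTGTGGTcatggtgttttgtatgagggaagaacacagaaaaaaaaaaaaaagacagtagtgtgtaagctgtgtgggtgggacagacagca
Clec2i: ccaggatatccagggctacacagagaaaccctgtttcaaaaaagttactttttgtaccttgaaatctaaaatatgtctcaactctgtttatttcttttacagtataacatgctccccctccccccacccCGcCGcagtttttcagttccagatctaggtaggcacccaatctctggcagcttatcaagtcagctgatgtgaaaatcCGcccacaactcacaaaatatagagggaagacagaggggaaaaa

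In global alignment the Klrb1f sequence was 58.0% identical to that of Klrb1b and 48.2% identical to that of Klrb1c, against 46.5% for Clec2i, a gene of another family. Its GC content was 38.4%. It held 2 CG pairs, against 5 for Klrb1b, 1 for Klrb1c and 3 for Clec2i. The Klrb1c sequence held TGTGGT once and the other 3 sequences did not hold it. Klrb1 and Klrb1a, also with at most 2 counts in a library, are not shown. Klrb1 was 58.2% identical to Klrb1f and lacked TGTGGT, while Klrb1a was 48.5% identical and held it once.

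Few of the members were detected. A gene was called expressed at 1 CPM or more in all 3 libraries of a group, at the floor at 3 counts or fewer in all 3, and low otherwise. In control cells 1 member was expressed, 1 was low (Fcer1g) and 27 were at the floor. With SAHA 1 was expressed, 2 were low (Fcer1g and Klrk1) and 26 were at the floor. In Smarcb1-RE cells 1 was expressed, 2 were low (Fcer1g and Klrc1) and 26 were at the floor. Of all 21810 protein-coding genes listed, 49.1% were expressed in control, 50.8% in SAHA and 51.5% in Smarcb1-RE libraries, and 39.6%, 38.1% and 37.1% were at the floor. The floor of 3 counts corresponded to 0.123 to 0.133 CPM in a library.

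**Figure D1:**
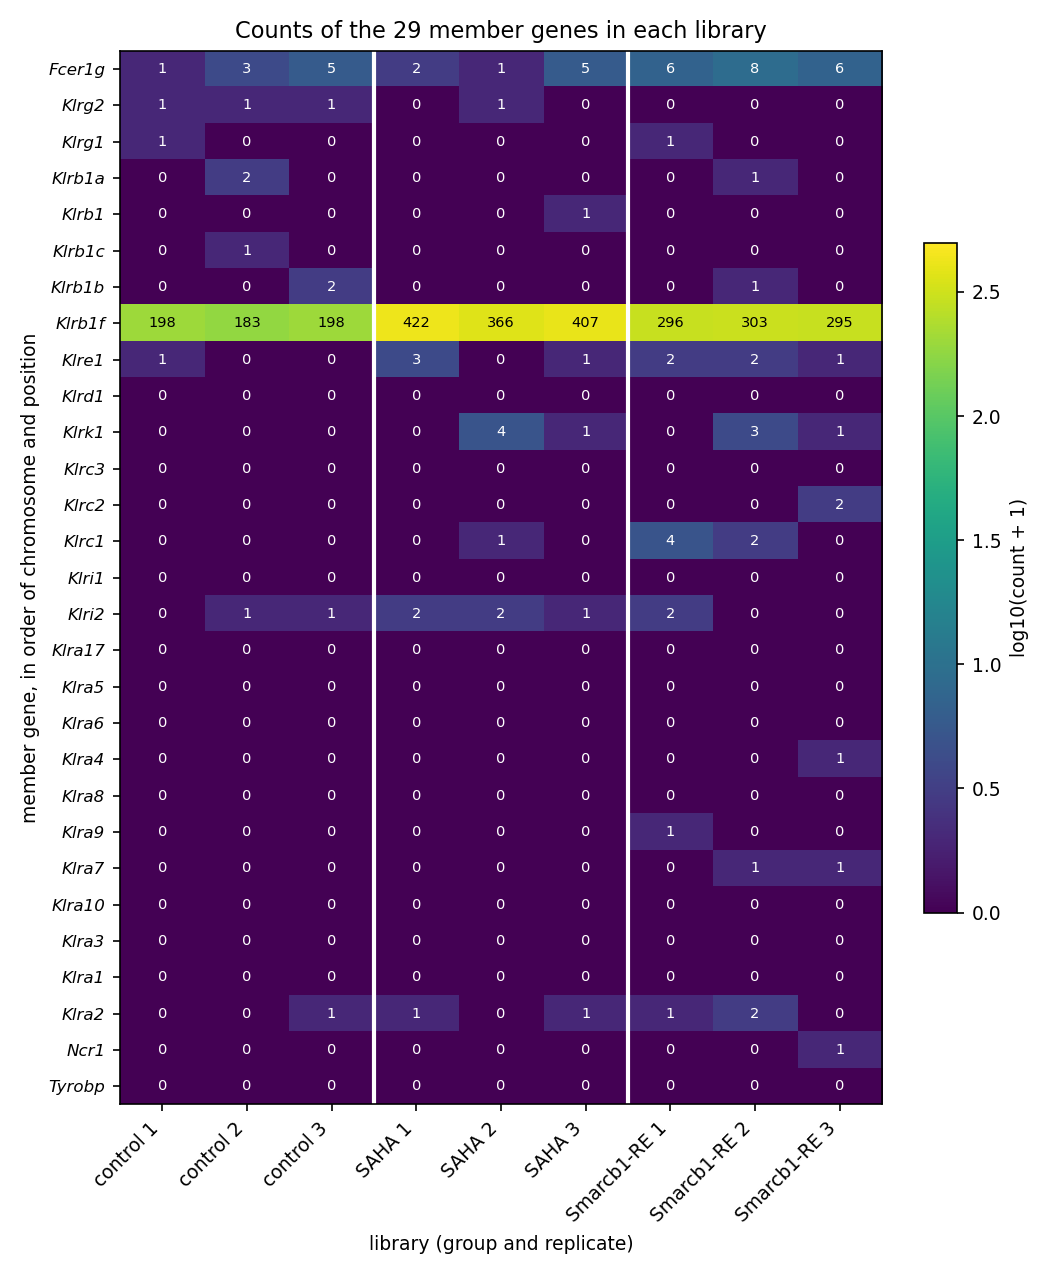
Counts of the 29 member genes (rows, in order of chromosome and position) in the 9 libraries (columns), with the count printed in each cell and the colour giving log10(count + 1). The Klrb1f row holds 183 to 422 counts, and no other cell exceeds 8.

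In bulk samples fewer cells with a transcript and less transcript in each cell cannot be told apart, so a low count here is a level over the whole culture. Tyrobp, Klrd1, Klrc3, Klri1, Klra1, Klra3, Klra5, Klra6, Klra8, Klra10 and Klra17 had 0 counts in all 9 libraries after rounding. For whole counts of reads unique to a gene, this allows up to 0.0143 CPM over the libraries together (library totals, no TMM factors). The limit may be higher for Klra10, Klra8, Klrc3 and Klra3, where 34.9% to 56.5% of 31-base words were found in no other gene. Another 14 members reached 1 to 3 counts in at least 1 library: Klrg1, Klrg2, Klrb1, Klrb1a, Klrb1b, Klrb1c, Klre1, Klrc2, Klri2, Klra2, Klra4, Klra7, Klra9 and Ncr1. The MHC class I receptors were thus at or near 0 throughout, with 1 count over the 11 Klra genes in all control libraries, 2 in the SAHA libraries and 7 in the Smarcb1-RE libraries. The CD94 partner Klrd1, without which the Klrc proteins do not form their usual heterodimer, was among those at 0.

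The 28 members other than Klrb1f together had 99 counts among 210106666. Their sums were 4, 8 and 10 counts in the control libraries, 8, 9 and 10 with SAHA, and 17, 20 and 13 in Smarcb1-RE cells. Pooled over libraries and scaled to library totals without TMM factors, this was 0.297 CPM in control (exact Poisson 95% interval 0.186 to 0.449, counting error only). It was 0.377 CPM with SAHA (0.249 to 0.549) and 0.777 CPM in Smarcb1-RE cells (0.576 to 1.02). The TMM factors were 1.07 to 1.08 in Smarcb1-RE libraries and 0.953 to 0.975 in the others. With them the Smarcb1-RE value would be lower and the other values higher, so the gap between these intervals depends on the scaling. The Smarcb1-RE sums lay above those of both other groups without overlap, at the nearest by 13 counts against 10. Of all genes tested, 40.4% had Smarcb1-RE libraries wholly above control, and the share above both groups was not counted. Of the 50 counts in Smarcb1-RE cells, 20 were Fcer1g. Klrb1f held 93.8% to 98.1% of all member counts in a library.

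Klrb1f was lowest in control, highest with SAHA and between them in Smarcb1-RE cells. Its counts were 198, 183 and 198 in the control libraries. They were 422, 366 and 407 with SAHA, and 296, 303 and 295 in Smarcb1-RE cells. The levels were 8.10 ± 0.344 CPM in control, 17.3 ± 1.07 CPM with SAHA and 12.9 ± 0.428 CPM in Smarcb1-RE cells (SD, n = 3 each). The 3 groups did not overlap in any pair. Per kb of exon the means were 4.00, 8.55 and 6.38 CPM, at percentiles 41.5, 59.7 and 51.1 of the 13697 genes tested, so that the gene was near the middle of the expressed range. Of the 31-base words in its transcripts 99.7% were found in no other gene, so few of its reads could have come from a paralog.

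Klrb1f rose 2.14-fold with SAHA over control (log2 fold change 1.10, SE 0.07, adjusted p = 6.54e-08, edgeR's quasi-likelihood test). Of the 29 members only this 1 had enough counts to be tested, and it was called higher, where 32.6% of all genes tested were called higher and 34.3% lower. Its fold change stood at percentile 90.7 of all genes tested. In Smarcb1-RE cells Klrb1f was 1.59-fold over control (log2 fold change 0.67, SE 0.08, adjusted p = 3.45e-06, edgeR), at percentile 75.3, and here 39.2% of genes were called higher and 38.6% lower. Between the treated groups, Klrb1f was 1.34-fold higher with SAHA (log2 fold change of Smarcb1-RE over SAHA -0.42, SE 0.07, adjusted p = 1.26e-04, edgeR), where 37.8% of genes were called higher in Smarcb1-RE cells and 36.8% lower. The exact two-sided permutation test over samples gave p = 0.1 for each pair of groups, the smallest p that 3 samples against 3 allow. Among all genes tested, 33.8% had SAHA libraries wholly above control and 40.4% had Smarcb1-RE libraries wholly above control. Both comparisons with control used the same control libraries. Where a log2 fold change of at least 1 was also asked for, Klrb1f was called only with SAHA against control. Of all genes tested, 9.85% were then called higher with SAHA, 16.9% higher in Smarcb1-RE cells against control and 8.21% lower in Smarcb1-RE cells against SAHA. Scaled to library totals alone, the median over all genes of the log2 fold change moved from 0.01 to 0.17 in Smarcb1-RE against control, and 47.3% of genes were called higher and 30.2% lower. Klrb1f under that scaling was at 0.83 against control and at -0.27 against SAHA, both past the threshold.

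The other 3 members above 3 counts in any library were 1 adaptor and 2 receptors, and none had enough counts for the main test. Fcer1g, which carries signals from Fc receptors and from NKp46, had 1, 3 and 5 counts in control, 2, 1 and 5 with SAHA, and 6, 8 and 6 in Smarcb1-RE cells. The Smarcb1-RE counts lay above all others, at 0.289 ± 0.0559 CPM against 0.125 ± 0.0815 CPM in control (SD, n = 3). Fitted without the filter on low counts, the log2 fold change over control was 1.14 (SE 0.68, adjusted p = 0.185, edgeR), which did not pass the threshold. Klrk1, the NKG2D receptor, had 0 counts in all 3 control libraries, then 0, 4 and 1 with SAHA and 0, 3 and 1 in Smarcb1-RE cells. Klrc1, the inhibitory partner of CD94, had 0 counts in control, 0, 1 and 0 with SAHA, and 4, 2 and 0 in Smarcb1-RE cells. For both, the groups overlapped. In the fit without the filter 18 members could be tested. Klrb1f alone passed the adjusted threshold in each comparison there, and the number at an unadjusted p below 0.05 was 1 for SAHA against control, 2 for Smarcb1-RE against control and 1 between the treated groups.

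The genes around Klrb1f were described next. From the first to the last clustered member, the natural killer gene complex ran over 2638 kb of chromosome 6 (chr6:128609227-131247362) and held 43 protein-coding genes, 24 of them members and 19 neighbours. These limits were chosen after the gene positions were seen, because Klrg1 and Klrg2 lie far from the other members on the same chromosome. Of the neighbours 8 had enough counts to be tested. With SAHA 6 rose and 1 fell (median log2 fold change 1.02, against 0.00 over all genes), and in Smarcb1-RE cells 4 rose and 2 fell (median 0.23, against 0.01). Of all genes tested, 32.6% were called higher and 34.3% lower with SAHA, and 39.2% and 38.6% in Smarcb1-RE cells. Clec2e, which rose in both comparisons, passed the filter on low counts only with the SAHA and Smarcb1-RE libraries. Its place in these counts and medians is thus tied to the groups where it is high. Over the whole stretch of chromosome 6 from Klrg2 to the last member, 421 of 766 protein-coding genes were tested. There 153 rose and 160 fell with SAHA, and 173 rose and 167 fell in Smarcb1-RE cells.

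**Figure D2:**
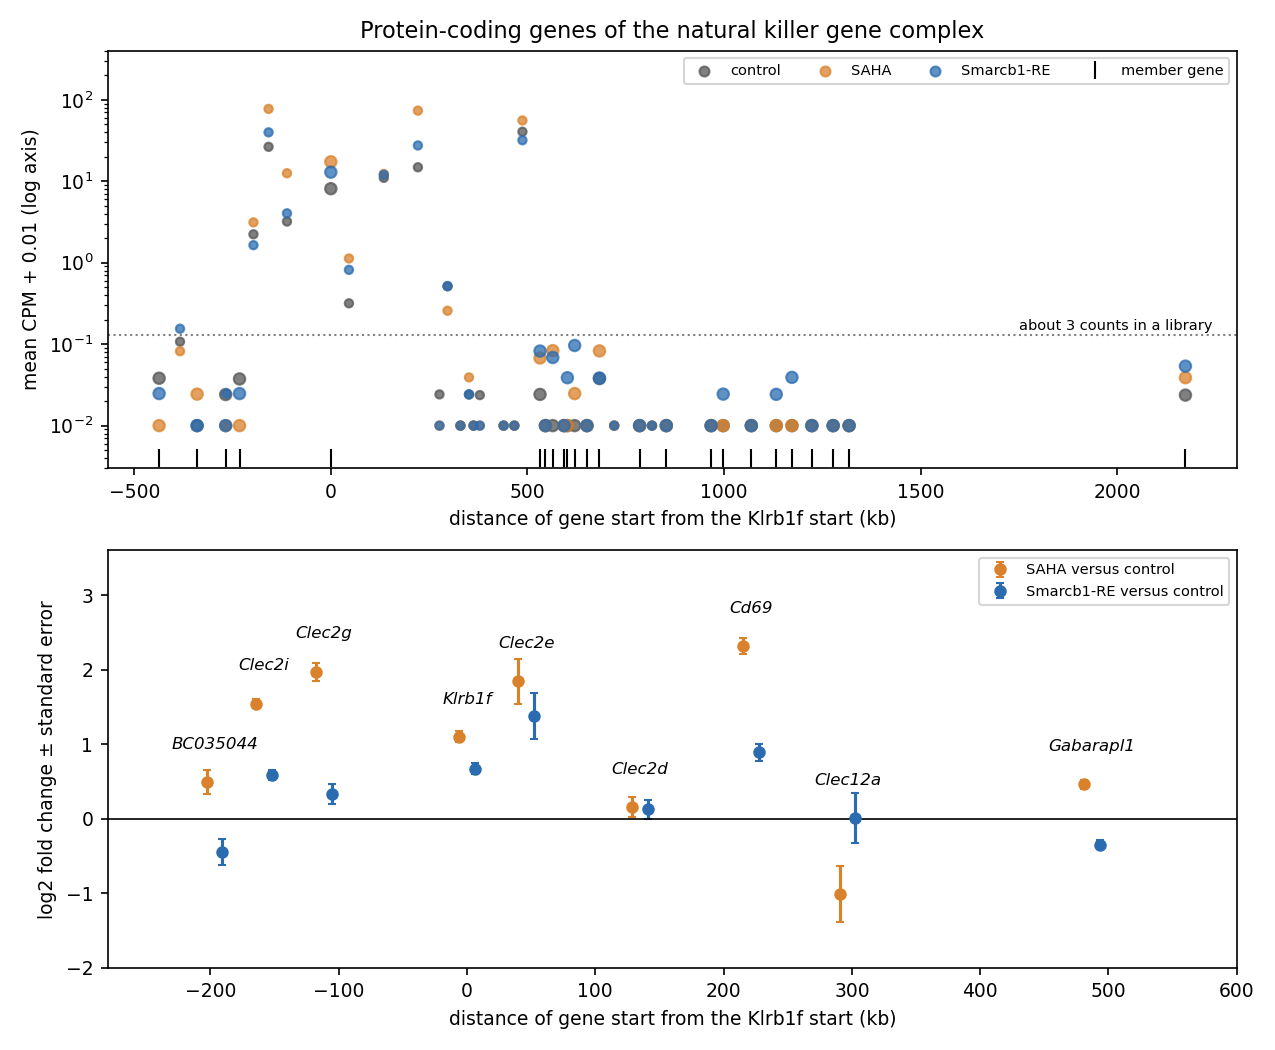
Protein-coding genes of the natural killer gene complex by distance of their lower coordinate from that of Klrb1f (kb). Upper panel, mean TMM-scaled CPM + 0.01 on a log axis for each group, large points for members and small ones for neighbours; lower panel, log2 fold change ± standard error of the genes tested. Klrb1f and a few neighbours close to it stand above the level of about 3 counts, while the Klra genes to its right lie at the bottom.

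The Clec2 genes encode the lectins that the NKR-P1 receptors bind. Clec2i, whose product Clr-g is a ligand of NKR-P1F, had 687, 550 and 655 counts in control, 1777, 1779 and 1769 with SAHA and 926, 890 and 943 in Smarcb1-RE cells. The 3 groups did not overlap. Clec2i rose with SAHA (log2 fold change 1.55, SE 0.06, adjusted p = 2.34e-09, edgeR) and in Smarcb1-RE cells (0.59, SE 0.07, adjusted p = 3.78e-06). Receptor and ligand transcripts thus had the same order of groups in the same line, with both measured over the whole culture. The order is not particular to this pair, since Cd69, Il2rb and Cd8a had it too without overlap. Of all genes tested, 33.8% had SAHA libraries wholly above control and 40.4% had Smarcb1-RE libraries wholly above control. The share with the full order of the 3 groups was not counted. Clec2g had 75, 86 and 67 counts in control against 276, 266 and 323 with SAHA (1.97, SE 0.12, adjusted p = 3.27e-08). In Smarcb1-RE cells it had 87, 92 and 100 counts, and its log2 fold change of 0.34 (adjusted p = 0.0366) lost the threshold in 10 alternative fits, among them those without control replicate 1 (0.33), control replicate 3 (0.23), SAHA replicate 1 (0.32), SAHA replicate 2 (0.32), Smarcb1-RE replicate 2 (0.33) or Smarcb1-RE replicate 3 (0.28). Clec2e was scarce, at 6 to 8 counts in control, 22 to 28 with SAHA and 14 to 22 in Smarcb1-RE cells. It passed the filter on low counts only with the SAHA and Smarcb1-RE libraries, so its calls are tied to the groups where it is high. Its log2 fold changes over control were 1.84 (SE 0.30, adjusted p = 1.31e-04) and 1.38 (SE 0.31, adjusted p = 0.00128).

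Clec2d, which encodes Clr-b, the ligand of the inhibitory NKR-P1B receptor, did not pass the threshold in either comparison. It had 330, 222 and 234 counts in control, 293, 276 and 277 with SAHA and 294, 273 and 264 in Smarcb1-RE cells. Its log2 fold changes were 0.16 (SE 0.13, adjusted p = 0.300) and 0.13 (SE 0.13, adjusted p = 0.389), and the first control library was above all others. Without control replicate 1 they were 0.37 (adjusted p = 0.00117) and 0.33 (adjusted p = 0.00197), past the threshold. Cd69, an early activation marker of lymphocytes encoded beside the Clec2 genes, had 407, 319 and 334 counts in control, 1442, 1842 and 1791 with SAHA and 623, 610 and 670 in Smarcb1-RE cells. It rose in both comparisons (2.31, SE 0.11, adjusted p = 4.36e-09, and 0.89, SE 0.11, adjusted p = 1.22e-05, edgeR).

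**Figure D3:**
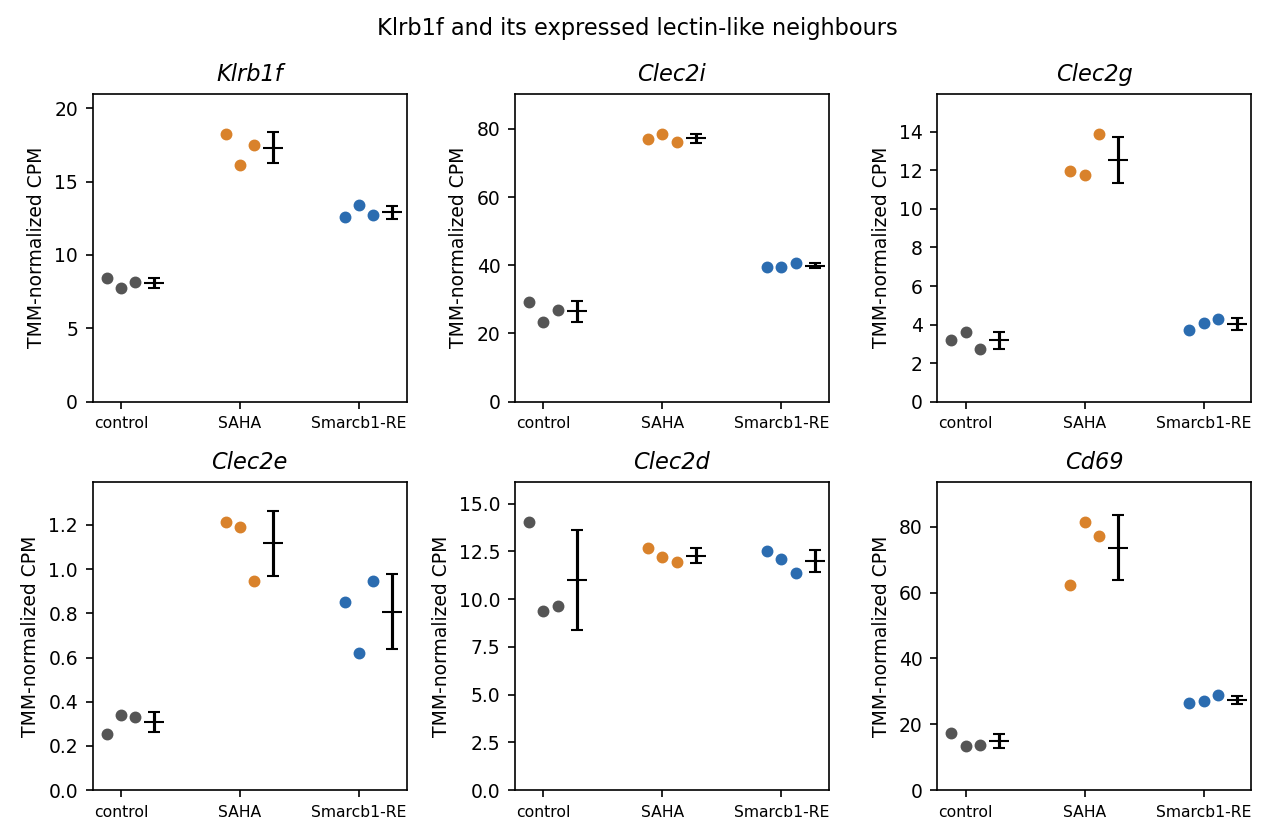
TMM-scaled CPM of Klrb1f, 4 Clec2 genes and Cd69 in each library (points, 3 per group), with mean ± SD beside them; each axis starts at 0. Klrb1f, Clec2i and Cd69 rank control, Smarcb1-RE, SAHA without overlap, whereas the Clec2d groups overlap.

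The remaining neighbours had other patterns. Gabarapl1, an autophagy gene, rose with SAHA (0.46, SE 0.06, adjusted p = 1.55e-05) and fell in Smarcb1-RE cells (-0.35, SE 0.06, adjusted p = 1.74e-04). BC035044 was called higher with SAHA (0.49) and lower in Smarcb1-RE cells (-0.45), at 35 to 79 counts a library. Its call was lost without control replicate 2 (0.44) or SAHA replicate 1 (0.41) for SAHA, and without control replicate 1 (-0.40), control replicate 3 (-0.46), Smarcb1-RE replicate 2 (-0.47) or Smarcb1-RE replicate 3 (-0.39) for Smarcb1-RE. Clec12a, an inhibitory lectin of myeloid cells, was called lower with SAHA (-1.01, adjusted p = 0.0299) at 4 to 14 counts. That call was lost without any 1 of the control libraries (-1.06, -0.95 and -1.03 for replicates 1 to 3), SAHA replicate 1 (-0.82) or SAHA replicate 3 (-0.93).

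Beyond the Clec2 genes, many ligands of the receptors were transcribed while the receptors other than Klrb1f were at or near the floor. Of 18 ligand genes matched, Clec2 included, 13 were tested. Clec2e, counted below among those that rose in both comparisons, passed the filter on low counts only with the SAHA and Smarcb1-RE libraries. With SAHA 10 rose, 0 fell and 3 did not pass (median log2 fold change 0.65, against 0.00 over all genes, of which 32.6% were called higher and 34.3% lower). In Smarcb1-RE cells 8 rose, 2 fell and 3 did not pass (median 0.34, against 0.01 over all genes, of which 39.2% were called higher and 38.6% lower). The same background holds for the lists that follow. The Ly49 ligand H2-K1 rose in both comparisons (0.52 and 0.70). H2-T23, which encodes Qa-1, was at 5534, 4585 and 4678 counts in control, 5116, 4712 and 4605 with SAHA and 10145, 9987 and 9691 in Smarcb1-RE cells. It rose in Smarcb1-RE cells (1.06, SE 0.07, adjusted p = 2.34e-08), and differed between the treated groups (1.04, adjusted p = 3.10e-08). With SAHA its log2 fold change over control was 0.02 (adjusted p = 0.861), and 0.11 (adjusted p = 0.0360) without control replicate 1.

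The NKG2D ligands did not move as a block in Smarcb1-RE cells, while with SAHA those tested rose or did not pass. Raet1d had 355, 315 and 296 counts in control and 406, 450 and 441 with SAHA (0.48, SE 0.09, adjusted p = 4.26e-04). In Smarcb1-RE cells it fell to 145, 166 and 161 (-0.99, SE 0.10, adjusted p = 1.20e-06). Raet1e, at 79 to 84 counts in control, rose with SAHA (0.73, SE 0.16) and did not pass in Smarcb1-RE cells (-0.25, adjusted p = 0.202). H60b rose by similar amounts in both comparisons (0.97 and 0.96, SE 0.22 each). H60c rose with SAHA (0.74, SE 0.21) and did not pass in Smarcb1-RE cells (0.00, SE 0.22). Ulbp1 was the most abundant in counts, at 5029 to 6421 a library, and fell slightly in Smarcb1-RE cells (-0.18, adjusted p = 0.00746), though not when scaled to library totals alone (-0.02, adjusted p = 0.742). Raet1 genes are near-identical copies of each other, so reads may have been split between them. The Klrg1 ligands Cdh1, Cdh2 and Cdh4 were at 4 counts or fewer in each library.

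Among the adaptors other than members, Hcst, which carries the NKG2D signal, was scarce in control (7, 1 and 5 counts) and with SAHA (5, 5 and 9). In Smarcb1-RE cells it had 21, 38 and 34 counts, above all other libraries, a log2 fold change of 2.85 (SE 0.46, adjusted p = 9.00e-05, edgeR). With SAHA it was 0.59 (SE 0.58, adjusted p = 0.392), and the treated groups differed by 2.27 (SE 0.43, adjusted p = 3.87e-04). The T-cell receptor chains on the same list were abundant. Cd247 (CD3 zeta) fell with SAHA (-0.61, SE 0.04) and in Smarcb1-RE cells (-0.28, SE 0.04), Cd3g rose with SAHA (0.40, SE 0.05) and fell in Smarcb1-RE cells (-0.35, SE 0.05), and Cd3e fell in Smarcb1-RE cells (-0.28, SE 0.04). Cd3d fell with SAHA (-0.19, SE 0.05). Of the 5 adaptors tested, 1 rose and 2 fell with SAHA, and 1 rose and 3 fell in Smarcb1-RE cells. Hcst, the 1 that rose in Smarcb1-RE cells, passed the filter on low counts only with the Smarcb1-RE libraries.

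A list of receptor signalling genes, not all of them downstream of the lectin-like receptors, had 20 genes tested. Of these, 8 rose and 5 fell with SAHA, and 9 rose and 5 fell in Smarcb1-RE cells. Sh2d1b1 and Sh2d1b2 passed the filter on low counts only with the Smarcb1-RE libraries, and Vav2 only with the SAHA libraries. Their place among the genes that rose is thus tied to the group where they are high. Sh2d1b1 (EAT-2), an adaptor of SLAM-family receptors, had 6, 6 and 5 counts in control, 3, 3 and 2 with SAHA, and 231, 238 and 231 in Smarcb1-RE cells (5.38, SE 0.18, adjusted p = 7.30e-11). Its paralog Sh2d1b2 had 39, 24 and 24 counts in Smarcb1-RE cells and stayed at the floor in both other groups, so it was at least 9.96-fold higher than the control floor of 3 counts a library. Reads may have been split between these paralogs. Vav2 rose with SAHA (2.49, SE 0.29) and Vav3 rose in both comparisons (1.37 and 1.16, SE 0.13 each). Ptpn6 (SHP-1), the phosphatase recruited by inhibitory receptors, fell with SAHA (-0.80, SE 0.05, adjusted p = 2.30e-08) and in Smarcb1-RE cells (-0.69, SE 0.05, adjusted p = 2.67e-08). Ptpn11 (SHP-2) fell by 0.27 and by 0.69 on the log2 scale.

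Of 20 other natural killer receptor and surface marker genes, Cd69 among them, 11 had enough counts to be tested. With SAHA 7 rose and 2 fell, and in Smarcb1-RE cells 8 rose and 0 fell (3 did not pass; an unfiltered fit called 1 lower). Slamf7 (CRACC) rose from 330, 330 and 368 counts in control to 3656, 3264 and 3493 in Smarcb1-RE cells (3.39, SE 0.05, adjusted p = 7.95e-14), and had 443, 429 and 437 with SAHA (0.40, SE 0.06, adjusted p = 4.81e-05). Slamf6 (Ly108) rose by 3.02 on the log2 scale in Smarcb1-RE cells (SE 0.10) and by 0.80 with SAHA (SE 0.11). Il18r1 had 64 to 83 counts in Smarcb1-RE cells against 5 to 13 in all others (3.13, SE 0.33 over control). It passed the filter on low counts only with the Smarcb1-RE libraries. Crtam, which binds a cell adhesion protein, fell with SAHA (-0.46, SE 0.06) and rose in Smarcb1-RE cells (0.23, SE 0.06). Tigit, an inhibitory receptor, rose with SAHA (1.20, SE 0.19), and Cd200r1 fell with SAHA (-0.84, SE 0.06) and rose in Smarcb1-RE cells (0.44, SE 0.05). Il2rb, a subunit of the receptors for interleukins that natural killer cells need, was abundant and rose in both comparisons (0.89 and 0.29, SE 0.05 each).

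**Figure D4:**
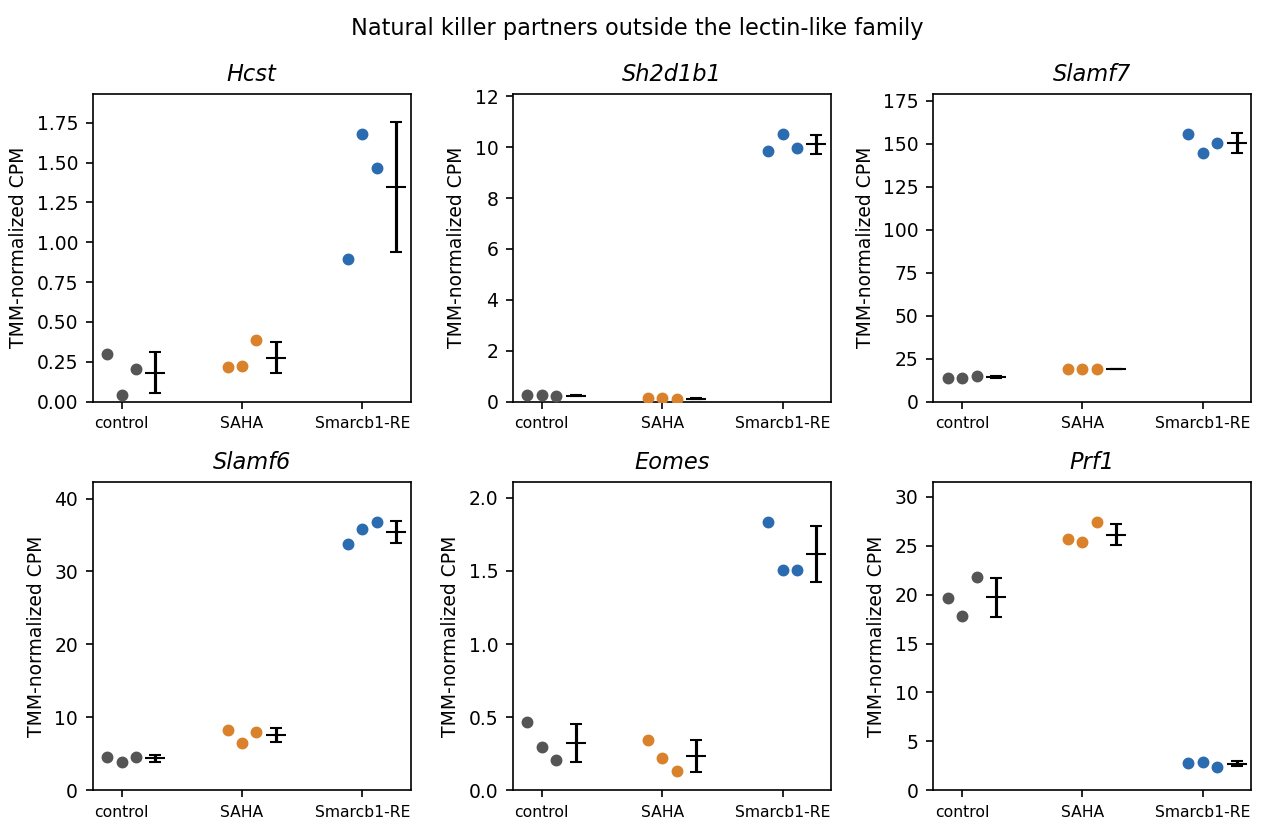
TMM-scaled CPM of 6 natural killer associated genes that are not members, by library (points, 3 per group), with mean ± SD beside them; each axis starts at 0. In Smarcb1-RE libraries Hcst, Sh2d1b1, Slamf7, Slamf6 and Eomes lie above the other groups and Prf1 below them. The 6 genes were picked from longer lists, where others such as Tbx21, Ptpn6 and Cd247 fell in Smarcb1-RE cells.

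Transcription factors of natural killer and cytotoxic T cells were mostly transcribed, with 19 of 22 tested, 10 higher and 3 lower with SAHA and 10 higher and 8 lower in Smarcb1-RE cells. Over all genes 39.2% were called higher and 38.6% lower in Smarcb1-RE cells. Among the 3 lower with SAHA was Tcf7 (-0.11, adjusted p = 0.0472, edgeR), which kept its call in 5 of 16 alternatives and lost it without control replicate 2 (-0.09) or 3 (-0.10), SAHA replicate 1 (-0.09) or 2 (-0.11), or Smarcb1-RE replicate 2 (-0.11) or 3 (-0.11). Eomes, a T-box factor of natural killer cells, was at 11, 7 and 5 counts in control, 8, 5 and 3 with SAHA and 43, 34 and 35 in Smarcb1-RE cells (2.31, SE 0.34, adjusted p = 4.07e-05). It passed the filter on low counts only with the Smarcb1-RE libraries. Tbx21, a far more abundant T-box factor (mean 218 CPM in control), rose with SAHA (0.45, SE 0.04, adjusted p = 9.73e-07, edgeR). In Smarcb1-RE cells Tbx21 fell (-0.56, SE 0.04, adjusted p = 7.17e-08). Gata3 rose (2.57, SE 0.11) and Tcf7 fell (-2.58, SE 0.05) in Smarcb1-RE cells. Id2 and Nfil3, both needed for natural killer development, rose with SAHA (0.55, SE 0.06, and 0.51, SE 0.04) and fell in Smarcb1-RE cells (-0.31 each). Stat5a fell in both comparisons (-0.46 and -1.01, SE 0.04 each). Zeb2, a factor of late natural killer maturation, rose with SAHA (0.99, SE 0.07) and fell in Smarcb1-RE cells (-1.50, SE 0.09). Prf1 (perforin), the pore-forming protein of killer cells, had 462, 421 and 530 counts in control, 593, 574 and 637 with SAHA (0.41, SE 0.08, adjusted p = 4.74e-04) and 66, 65 and 56 in Smarcb1-RE cells (-2.87, SE 0.10, adjusted p = 1.13e-10). Gzma, a granzyme gene, had 0 counts in control, 1 with SAHA in 1 library, and 8, 5 and 2 in Smarcb1-RE cells.

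Markers of other cells gave the following levels. T-cell markers were abundant, with 10 of 13 expressed in every group, Cd3e and Cd8a among them, although Cd2, Cd5 and Thy1 had at most 6 counts in a library. Their summed level was 4141 to 4474 CPM in control, 4444 to 4492 with SAHA and 4049 to 4101 in Smarcb1-RE cells. Natural killer markers that are not members (8 genes) summed to 614 to 690, 1170 to 1247 and 781 to 793 CPM, in the same order of groups as Klrb1f. Il2rb made up most of these sums, and other genes of the list had other orders. Mean Prf1 was 19.7 CPM in control, 26.1 with SAHA and 2.70 in Smarcb1-RE cells, and mean Eomes 0.323, 0.232 and 1.62 CPM. Within that list Ncam1 had at most 6 counts in a library and Itga2 at most 2, and the member Ncr1 had 1 count in all. Of 16 myeloid and mast cell markers, which share Fcer1g and Tyrobp with natural killer cells, 12 were at the floor in control, 13 with SAHA and 14 in Smarcb1-RE cells. They summed to 2.79 to 3.21, 7.66 to 8.91 and 2.39 to 2.52 CPM. Csf1r had at most 1 count, while Cd68 (1.99, SE 0.16) and Ms4a2 (1.30, SE 0.25) rose with SAHA. Itgam (CD11b), also on the list of natural killer receptors, had 12, 8 and 11 counts in control, 0, 1 and 1 with SAHA and 2, 2 and 3 in Smarcb1-RE cells, too few for the main test. Lyz2 had 4, 2 and 2 counts in control and 0 in all 3 SAHA libraries. Of 7 B-cell markers 3 were tested, and the sums were 92.7 to 96.0, 101 to 112 and 155 to 163 CPM, nearly all of it Ebf1 (means 92.7, 106 and 152 CPM). Pax5 had 0, 6 and 1 counts in control, 22, 11 and 20 with SAHA and 89, 92 and 88 in Smarcb1-RE cells. Ms4a1 had 20, 17 and 22, then 18, 16 and 19, and 79, 85 and 79. The part of these markers in the Klrb1f result was not tested.

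The promoters of the members shared features that the choice of members did not use. RefSeq windows of 300 bases, from 250 before to 50 after the start, were at hand for 25 of the 29 members and 27025 genes in all. Member windows had a median GC content of 40.0%, against 52.7% over all genes. They held a median of 2 CG pairs, against 7, and 20 of 25 held 3 or fewer, as did 31.9% of all windows. Klrb1f, with 2 CG pairs, was at the members' median. Many members are paralogs, so their windows are not independent of each other. On either strand, TGTGGT (RUNX core) was in 10 of the 25 member windows (40.0%) and in 16.9% of all windows. TCACAC (T-box) was in 4 and in 14.4% of all, TGANTCA (AP-1) in 4 and in 7.93%, and TTCNNNGAA (GAS, the site class of STAT factors) in 4 and in 8.47%. The Klrb1f window held none of the first 3 and 1 GAS match. These matches are letters in a window, and no binding was measured.

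**Figure D5:**
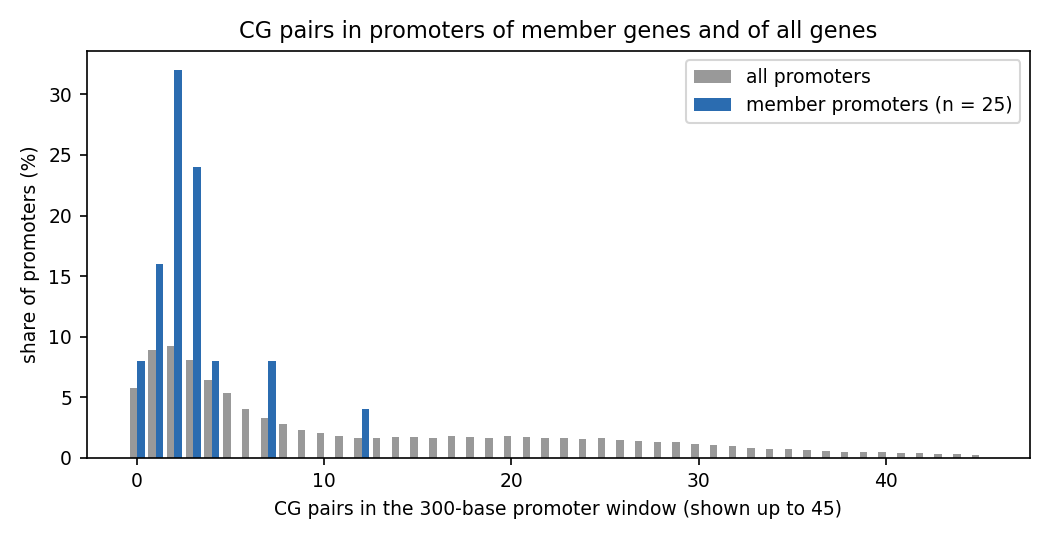
Share of promoter windows (%, bars from 0) by the number of CG pairs in 300 bases, for the 25 member windows and for all 27025 windows; numbers above 45 are not drawn. The member windows gather at 0 to 4 pairs, with a highest value of 12.

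Depth and uniqueness bounded what could be seen of the members at the floor. The libraries had 20900424 to 24941408 counts each. Replicates differed by more than sampling noise in every pair (chi-square per gene 2.08 to 14.0), most in both pairs with control replicate 1. Without that library Klrb1f was at 1.12 with SAHA and at 0.70 in Smarcb1-RE cells against control (log2 fold changes). Smarcb1 itself had 2, 5 and 8 counts in control, 7, 13 and 3 with SAHA and 151, 147 and 142 in Smarcb1-RE libraries, as labelled. Of the 29 members 12 had at least 95% of their 31-base words to themselves and 10 had under 80%, the lowest being Klra10 at 34.9%, so the counts of single Klra genes are uncertain.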

How the data were processed

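RNA-seq was analysed in 9 libraries of T15 cells, 3 per group, grouped by the labels. The authors deposited 1 table of estimated counts per Ensembl gene, unpooled and not normalized, of which 52.4% of the values above 0 were not whole, and these expected counts were rounded here. Per the labels the submitters' processing notes name Salmon 0.14.1, DESeq2 1.22.2, FastQC 0.11.8, MultiQC 1.7 and GRCm38. The annotation release and strand setting are not given in the sources used here. GENCODE M21 held 35028 of 35288 identifiers (99.3%). Where genes overlap, counts may be shared. Genes passing edgeR's filterByExpr (minimum count 10), 13697 in all, were scaled with TMM factors and fitted together with quasi-likelihood tests (edgeR 4.0.16, R 4.3.3, Benjamini-Hochberg, threshold 0.05, SE from the F statistic). The method was tested on simulated data. Totals were 20900424 to 24941408 counts a library. Alternatives were DESeq2 1.42.0, other scalings and filters, separate fits, a replicate block, a minimum log2 fold change of 1 and leaving out each library. For Klrb1f, a fit of counts summed over the Klrb genes was a further alternative. Named were members above 3 counts, up to 3 called genes per list, direction and comparison with the largest fold changes, fixed markers and Smarcb1, with further genes of each list given for context. Some of those were chosen after their values were seen. The members and lists were chosen with earlier results of these data known. Promoter sequences are from RefSeq (GRCm38.p6). 1 marker gene is not reported here.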

Additional observations from a re-analysis of the deposited data

How the results depend on the processing

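Klrb1f kept its direction and stayed past the threshold in all 17 alternatives of each comparison. These include a fit of counts summed over the 5 Klrb genes, nearly all of which came from Klrb1f. Its log2 fold change ranged from 1.05 to 1.14 for SAHA against control, from 0.63 to 0.83 for Smarcb1-RE against control and from -0.49 to -0.27 for Smarcb1-RE against SAHA. Asking also for a change of at least 1 on the log2 scale, the number of members called higher in Smarcb1-RE against control went from 1 to 0, and the number called lower in Smarcb1-RE against SAHA went from 1 to 0, since both changes are smaller than that. Leaving out any 1 library gave 1 member called higher in each comparison with control and 0 lower.

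The replicate block gave Klrb1f 1.10, 0.67 and -0.42, with 1 member called in each comparison. Same-numbered libraries did not deviate together over all genes tested (mean correlation 0.00, from -0.06 to 0.04, 9 pairs). An effect shared by few genes would not show in this correlation, so it does not settle whether the numbers pair the libraries. Of the genes reported, Clec2g in Smarcb1-RE against control lost its call under the block (0.34, adjusted p = 0.0509, edgeR).

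Of 2221 combinations of a named gene, a comparison and an alternative, 2165 kept direction and call, 46 lost the call and 9 gained it. Counts over gene lists stayed close to the reported count in 547 of 612 combinations of a list, a comparison and an alternative and moved in 65, 28 of these when a change of at least 1 on the log2 scale was asked for. Pik3cd in Smarcb1-RE against SAHA reversed when scaled to library totals alone, to 0.0135, and was not past the threshold there. Members at the floor are limited by depth: 3 counts are 0.123 to 0.133 CPM.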
